A study of Mus musculus with 2 samples.

Results

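Peaks at the ends of protein-coding genes made up a minority of the deposited Cut&Tag peaks from mouse hippocampus, but they stood on more fragments than the other peaks and gathered at gene starts. A peak was counted here if its interval came within 1000 bp of either end of a protein-coding gene in the RefSeq annotation of GRCm38, on chromosomes 1 to 19, X, or Y, and a peak that held the end itself counted as 0 bp away. By this rule 617 of the 5326 peaks were gene-end peaks (11.6%, 95% exact interval 10.7% to 12.5%). They touched 717 of the 21887 protein-coding genes (3.28%). Nuclei were prepared from frozen mouse hippocampus, and 1 library was made with an anti-Smad4 antibody and 1 with an IgG control antibody. The labels give no strain, age, sex, or genotype for either library, and neither antibody had a replicate. The only peak list used here is attached to the IgG control record and names no antibody. The paper reports almost the same number of peaks from its Smad4 experiment, but which antibody the list came from was not determined here. The peaks are thus described without an antibody, and the antibodies were not compared. The differences described below are therefore differences within 1 list, without a replicate check, and the intervals (Clopper-Pearson) cover counting error only.

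The start of a gene, where RNA polymerase II begins transcription, usually lies in open chromatin, and many starts of broadly expressed genes sit in CpG islands, stretches rich in CpG dinucleotides that escape DNA methylation. Smad4 is the common partner of the receptor-activated Smads, carries TGF-β and BMP signals into the nucleus, and binds short motifs such as CAGAC in promoters and enhancers. In Cut&Tag an antibody brings the Tn5 transposase to the chromatin, where it cuts and tags the DNA nearby, and open chromatin is also cut without a bound antibody.

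The bases in front of the starts show what kinds of promoters carried the strongest of these peaks. Each line gives the 250 bases before a start listed by RefSeq, read toward the gene, with the CpG dinucleotides in capitals. Opa3, Smg1, Mzf1, and Fam214b were the member genes with the highest −log10 q that had a peak over such a window. Abhd4 shares its peak and its promoter with Dad1, which is transcribed in the other direction.
Opa3, chr7:19228139-19228388, plus strand: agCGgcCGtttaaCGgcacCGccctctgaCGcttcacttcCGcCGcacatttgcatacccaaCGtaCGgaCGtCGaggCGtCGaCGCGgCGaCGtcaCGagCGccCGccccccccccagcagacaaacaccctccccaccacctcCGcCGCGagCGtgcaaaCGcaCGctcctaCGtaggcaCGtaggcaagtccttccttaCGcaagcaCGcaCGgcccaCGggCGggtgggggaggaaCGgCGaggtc
Smg1, chr7:118243638-118243887, minus strand: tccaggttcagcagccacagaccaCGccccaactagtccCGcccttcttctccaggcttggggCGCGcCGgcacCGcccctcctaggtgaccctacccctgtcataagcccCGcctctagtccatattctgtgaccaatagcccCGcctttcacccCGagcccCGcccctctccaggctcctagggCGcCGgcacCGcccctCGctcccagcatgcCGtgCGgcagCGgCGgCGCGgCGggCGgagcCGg
Abhd4, chr14:54253879-54254128, plus strand: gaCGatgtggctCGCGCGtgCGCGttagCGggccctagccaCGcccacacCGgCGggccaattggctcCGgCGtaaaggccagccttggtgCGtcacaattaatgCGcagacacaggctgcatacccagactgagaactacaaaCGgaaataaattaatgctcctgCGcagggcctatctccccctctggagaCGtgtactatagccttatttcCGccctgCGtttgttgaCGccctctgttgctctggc
Mzf1, chr7:13054765-13055014, minus strand: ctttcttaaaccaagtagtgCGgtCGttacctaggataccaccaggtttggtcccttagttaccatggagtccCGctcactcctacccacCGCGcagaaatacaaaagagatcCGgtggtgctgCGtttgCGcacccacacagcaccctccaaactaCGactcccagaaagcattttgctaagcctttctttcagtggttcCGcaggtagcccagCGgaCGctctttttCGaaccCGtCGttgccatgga
Fam214b, chr4:43046221-43046470, minus strand: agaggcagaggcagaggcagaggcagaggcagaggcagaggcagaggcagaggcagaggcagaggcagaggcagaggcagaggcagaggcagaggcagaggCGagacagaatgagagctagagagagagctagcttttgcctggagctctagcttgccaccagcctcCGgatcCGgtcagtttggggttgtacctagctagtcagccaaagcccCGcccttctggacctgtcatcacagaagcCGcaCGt

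The windows of Opa3, which encodes a mitochondrial membrane protein, and of Smg1, a kinase of nonsense-mediated mRNA decay, held 35 and 23 CpG dinucleotides. The Opa3 peak had a fold enrichment of 7.72 over the background and a pileup of 10, that is, 10 fragments overlapping at its summit. At Smg1 the fold enrichment was 7.79 and the pileup 9. The window of Abhd4, which encodes a lipid hydrolase, held 20 CpG dinucleotides, and its peak had a fold enrichment of 6.54 and a pileup of 7. Mzf1, a zinc finger transcription factor, had 15 in its window under a peak with a fold enrichment of 8.32 and a pileup of 9. Fam214b was the CpG-poor case, with 6 in the window, although its peak was as strong, with a fold enrichment of 8.57 and a pileup of 10. The first bases of the Fam214b window were a run of short aggcag repeats, which lay under the peak.

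Gene-end peaks were supported by more fragments than peaks elsewhere. A q-value of at most 0.01 was reached by 332 of the 617 gene-end peaks (53.8%, interval 49.8% to 57.8%), against 38.6% of all peaks and 36.6% (35.3% to 38.0%) of the 4709 other peaks. The median fold enrichment was 3.77 at gene ends and 2.88 among the other peaks, and a fold enrichment of at least 5 was found in 148 gene-end peaks (24.0%), against 17.1% of all peaks. Pileups were worked out from the deposited values, and at least 3 fragments were found in 447 gene-end peaks (72.4%, 68.7% to 75.9%), against 46.6% of all peaks and 43.2% (41.8% to 44.6%) of the other peaks. Among the peaks with at least 3 fragments, the part with a q-value of at most 0.01 was smaller at gene ends, 332 of 447. Among the other peaks it was 1725 of 2033. The higher share of low q-values at gene ends thus went with fewer peaks of 2 fragments. At equal pileup, however, the median fold enrichment was lower at gene ends than among the other peaks, from a pileup of 2 to 10 or more. At a pileup of 3 the medians were 3.50 and 3.70, at 4 they were 4.30 and 4.54, and at 5 they were 5.01 and 5.35. The lowest fold enrichment in the list, 2.83 to 2.88, came with a pileup of 2 and was the value of many gene-end peaks as well. The pair of 2.83 with 1.36 for the −log10 q was shared by 88 of them (14.3%), against 20.6% of all peaks. The pair of 2.88 with 1.57 was shared by 77 (12.5%), against 31.2% of all peaks. These tied peaks cannot be ranked against each other.

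Among the other positions, noncoding gene ends had the highest share of well-supported peaks and the space between genes the lowest. Of the 256 peaks near the end of a noncoding gene alone, 42.6% (36.4% to 48.9%) reached a q-value of at most 0.01. The share was 38.1% for the 2661 peaks inside genes and beyond 1 kb from an end. It was 33.5% (31.4% to 35.8%) for the 1792 peaks outside genes. The interval of the gene-end peaks, which began at 49.8%, lay above those of the 3 other positions, whereas the intervals of noncoding gene ends and of gene bodies overlapped.

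**Figure D1:**
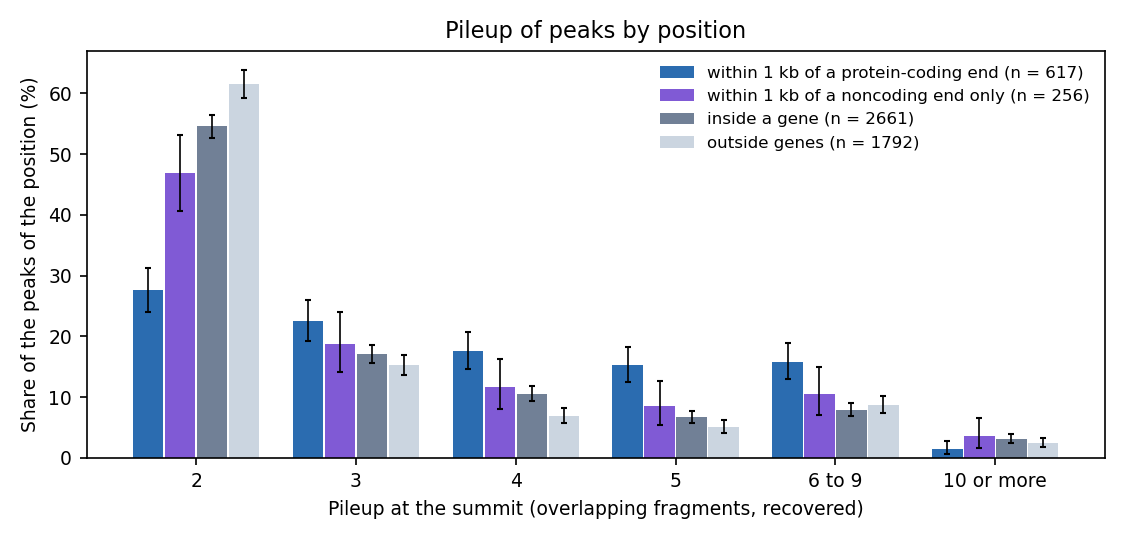
The share of peaks (vertical axis, in percent) is plotted for each pileup at the summit (horizontal axis, in fragments), for the 617 gene-end peaks and the 3 other positions, with bars for 95% exact intervals. At a pileup of 2 the gene-end peaks had the lowest share, 27.6%, and at pileups of 3, 4, 5, and 6 to 9 the highest, whereas at 10 or more their share was 1.46%.

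The strongest peaks of the list were rare at gene ends. A pileup of 10 or more was found in 9 gene-end peaks (1.46%, 0.669% to 2.75%) and in 137 of the others (2.91%, 2.45% to 3.43%). The intervals overlapped, so a lower share at gene ends was not resolved. The highest gene-end value by far was a fold enrichment of 17.4, against 35.6 in the whole list, and that peak ranked 21 among the 5326.

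Gene-end peaks were slightly narrower than the others. Their median width was 272 bp (quartiles 224 and 362 bp, range 193 to 674 bp), and that of the other peaks was 289 bp (quartiles 226 and 390 bp, up to 2639 bp). The difference was seen within most pileups. At a pileup of 4 the median widths were 265 bp at gene ends and 291.5 bp elsewhere, and at 5 they were 263 and 290 bp. At a pileup of 2, where the largest number of peaks lay, they were 277 and 285 bp. At pileups of 6 to 9 the order was the other way, with 276 and 268 bp. In each of these classes the quartiles of both groups overlapped widely. The 5 widest gene-end peaks lay near Slc16a7, a monocarboxylate transporter (674 bp), Icam4, an adhesion molecule (670 bp), Zfp931, a zinc finger protein (666 bp), Adamtsl2, a secreted matrix protein (662 bp), and Bco1, a carotene-cleaving enzyme (643 bp). Their fold enrichments ranged from 3.77 to 7.67, so the widest peaks were not the strongest ones.

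Most gene-end peaks lay at the start of a gene and not at its 3′ end. The RefSeq promoter table gives a strand for 17492 of the protein-coding genes, which tells the ends apart. The nearest end was a start for 408 gene-end peaks and a 3′ end for 96. The strand was not given for 110, and for 3 several ends of unlike kind were equally near. Of the 504 peaks with a known kind of end, 81.0% (77.2% to 84.3%) lay at starts. This share was 61.7% (53.1% to 69.8%) at a pileup of 2 and 89.2% (81.9% to 94.3%) at 3, with no further rise, since it was 88.4% at 4 and 88.0% at 5 or more. At a pileup of 10 or more it was 5 of 8 peaks (62.5%, 24.5% to 91.5%).

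Peaks at starts were also closer to the end and more enriched than those at 3′ ends. The median distance from the interval to the end was 69.5 bp at starts and 384.5 bp at 3′ ends. The end lay inside the peak for 139 of the start peaks (34.1%, 29.5% to 38.9%) and for 16 of the 3′ peaks (16.7%, 9.84% to 25.7%). The median fold enrichment was 4.23 at starts and 2.88 at 3′ ends, which is the value of a pileup of 2. A q-value of at most 0.01 was reached by 57.4% (52.4% to 62.2%) of the start peaks and 38.5% (28.8% to 49.0%) of the 3′ peaks. The interval at 3′ ends held the share of all peaks in the list, 38.6%.

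The summits of the start peaks were centred on the start. Their median position was 1 bp downstream of it, with quartiles at −201 and 252 bp, and 200 lay before the start and 208 at or after it. Of the start peaks, 220 (53.9%) had their summit within 250 bp of the start, and of the 3′ peaks 23 (24.0%) had it within 250 bp of the 3′ end. Around all starts with a known strand, 128 summits fell in the 250 bp before the start and 115 in the 250 bp after it. The count was 62 in the next 250 bp upstream and 50 in the next downstream, and between 1 and 1.5 kb from the start it was 11 to 25 in each stretch of 250 bp. At 3′ ends the counts within 1 kb were 8 to 24 for each 250 bp, with no rise at the end itself.

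**Figure D2:**
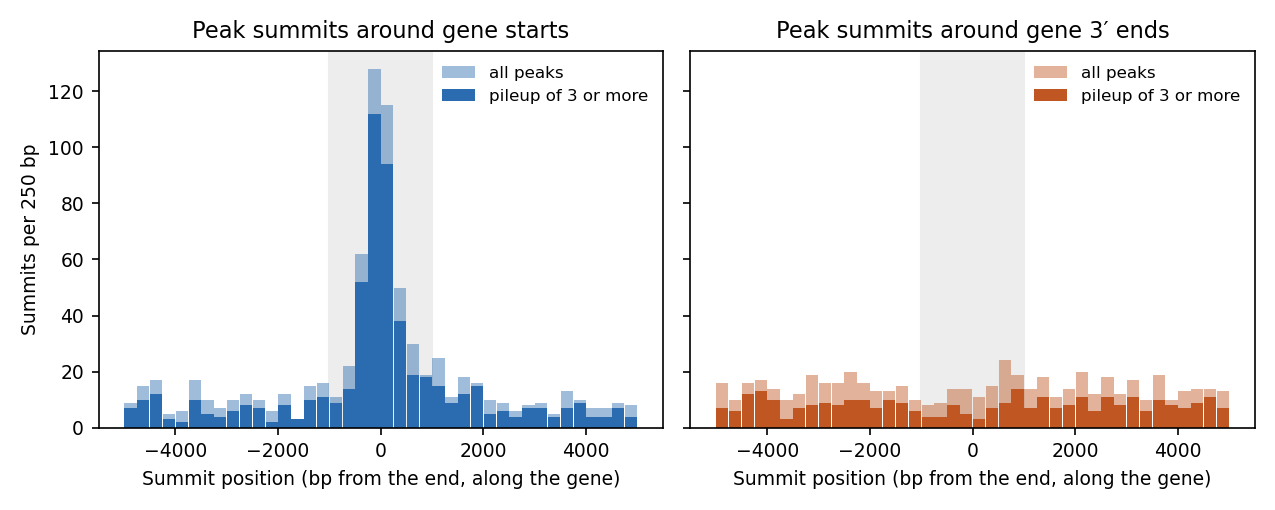
Peak summits per 250 bp (vertical axis) are plotted by their position along the gene (horizontal axis, in bp) around 17492 starts (left) and 17492 3′ ends (right), with peaks of a pileup of 3 or more in the darker color and the 1 kb window shaded. Summits rose to 128 and 115 for each 250 bp on the sides of the start and stayed between 8 and 24 within 1 kb of the 3′ end.

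Genes have starts other than the outermost, and other genes lie close by. Of the 96 peaks at 3′ ends, 5 lay within 1 kb of some start in the promoter table. Of the 2661 peaks inside genes that were not gene-end peaks, 54 (2.03%, 1.53% to 2.64%) lay within 1 kb of an internal start. A noncoding gene ended within 1 kb of 83 gene-end peaks (13.5%), and for 70 of these it was a long noncoding RNA. Reads do not tell which of the genes a shared peak belongs to. Among genes named below, Polr2a shares its peak with Slc35g3, Stx5a with Wdr74, Rps25 with Trappc4, Shank1 with 1700008O03Rik, and Dlg2 with Tmem126b.

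Most gene-end peaks lay well inside the limit of 1000 bp. The interval held the end in 187 gene-end peaks (30.3%), came within 500 bp in 305 (49.4%), and lay further away in 125 (20.3%). Just inside the limit were peaks near Ppcdc (993 bp, fold enrichment 5.35), Cacna1a (989 bp, 4.09), and Sat1 (984 bp, 2.83). Just outside it were peaks near Samd14 (1002 bp, 4.02), B4galt5 (1006 bp, 2.88), and Lurap1l (1006 bp, 5.45).

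The gene-end peak with the highest −log10 q, 38.9, lay 738 bp beyond the 3′ end of Wls, the carrier that takes Wnt proteins to the cell surface. It was on chromosome 3 from 159939404 to 159939624, was 221 bp wide, and had a fold enrichment of 17.4 and a pileup of 40. The next gene-end peak, 427 bp beyond the 3′ end of Cdkn1a, reached a fold enrichment of 9.42, with a pileup of 11 and 10.5 for the −log10 q. Cdkn1a encodes the cell cycle inhibitor p21. Tmem229a, a membrane protein, had a peak 931 bp before its start with a fold enrichment of 8.997. The predicted gene Gm32584 followed with 8.71, inside the gene near the 3′ end. Of the 15 gene-end peaks with the highest −log10 q, 7 lay at starts, 5 at 3′ ends, and 3 at genes of unknown strand. The 3′ peaks were those of Wls, Cdkn1a, Gm32584, Gm46731, and Lars2, the mitochondrial leucyl-tRNA synthetase. The others of the 15 were at Ccdc25, Sh2d2a, Fam214b, Mzf1, Dennd3, Gm40369, Smg1, Scn4a, and Opa3, with fold enrichments of 7.48 to 8.57. Fam214b shares its peak with the start of Unc13b, which encodes a protein that primes synaptic vesicles.

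**Figure D3:**
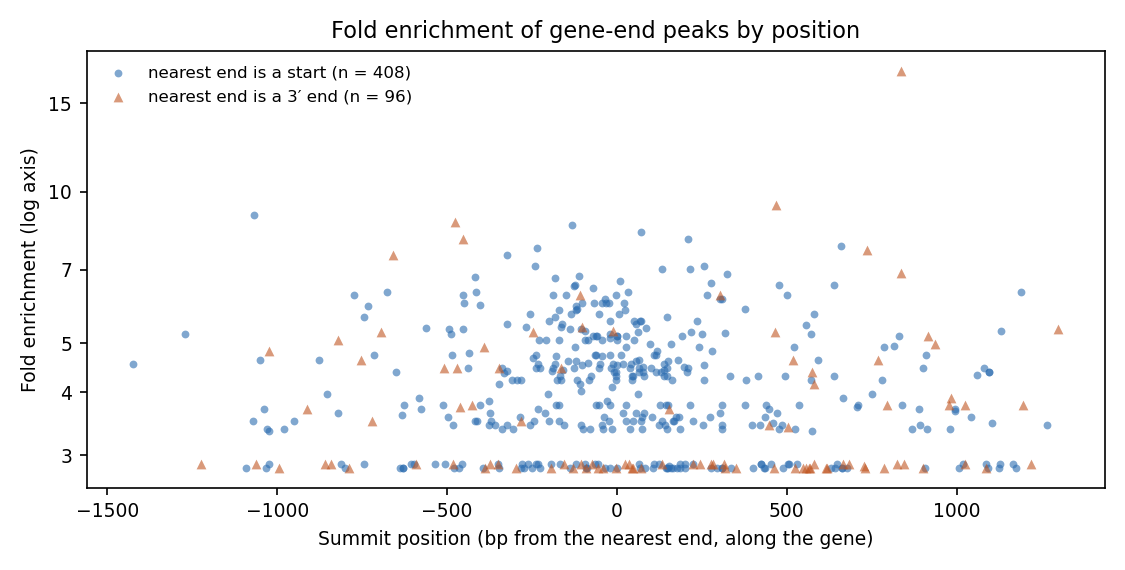
Fold enrichment (vertical axis, log scale) is plotted against the position of the summit along the gene (horizontal axis, in bp) for the 408 gene-end peaks at starts and the 96 at 3′ ends. Start peaks were densest within 250 bp of the start, 3′ peaks were spread over the window, and the highest point is the 3′ peak of Wls at 17.4.

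Most genes with such a peak had a single one. Among the 717 genes, 705 had 1 gene-end peak and 12 had 2. Of the 12, 7 had a peak at each end (Fbxo44, Dcaf4, Slc39a1, Bscl2, Armc6, Pm20d2, and Miga2), 2 had both at the same end (Islr2 and Rap2a), and 3 had no strand given (Bhlhe40, Higd1b, and Tmem235). The strongest of these were Fbxo44, part of a ubiquitin ligase, with a fold enrichment of 7.01 at a peak that holds the start of Fbxo6, and Bhlhe40, a transcription factor of the circadian clock, with 6.72. By gene length, the share of genes with a gene-end peak was lowest in the shortest of 5 equal groups of genes, up to 4168 bp long, at 1.87% (1.49% to 2.32%). It was 3.34%, 3.86%, 4.11%, and 3.20% in the groups of longer genes, and the intervals of neighbouring groups among these overlapped. Olfactory and vomeronasal receptor genes, described below, have median lengths of 0.95 and 0.96 kb and few gene-end peaks. Their part in the share of the shortest group was not tested. By chromosome the share of genes with a gene-end peak was highest on chromosome 8, at 5.08% (3.83% to 6.59%), and on chromosome 11, at 4.60% (3.63% to 5.74%). The X chromosome (1.45%, 0.795% to 2.42%) and chromosome 13 (1.45%, 0.750% to 2.51%) had the lowest shares except for the Y chromosome, where 1 of 256 genes had a gene-end peak.

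A minority of the gene-end peaks lay near several genes. Of the 617 peaks, 507 lay near 1 protein-coding gene, 108 near 2, and 2 near 3 or more. Starts that face away from another start within 1 kb form divergent promoters. A peak lay at 83 of the 1158 starts with such a partner (7.17%, 5.75% to 8.81%) and at 399 of the 16334 without (2.44%, 2.21% to 2.69%). The members of a pair share their peak, so these starts are not independent of each other and the first interval is too narrow. A start with a partner can also be credited with a peak at the partner's start, so the shares do not count the same thing.

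The 41 peaks at divergent pairs were led by the peak of Dad1 and Abhd4, whose starts lie 200 bp apart. Dad1 encodes a subunit of the enzyme that attaches sugar chains to new proteins. The peak of Smim7 and Tmem38a followed with a fold enrichment of 6.33, and that of Aldh6a1 and Lin52 with 6.23. Aldh6a1 breaks down valine in mitochondria. The next were Hdlbp and Septin2 (6.14), Dzip3 and Cip2a (5.73), Atp5md and Pdcd11 (5.26), and Glyr1 and Ubn1 (5.54). Mphosph10 and Mcee, Emg1 and Phb2, and Casc1 and Etfrf1 each had a fold enrichment of 5.16. Mphosph10, Emg1, and Pdcd11 act in the assembly of ribosomes, and Atp5md is part of the mitochondrial ATP synthase.

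Promoters under a peak were rich in CpG dinucleotides. Of the 21263 promoter windows of 300 bp (250 bases before to 50 bases after a listed start), 371 were overlapped by a peak (1.74%). The median number of CpG dinucleotides was 23 in these windows (quartiles 17 and 29.5) and 13 in all windows (quartiles 4 and 24). The median GC content was 62.7% in windows with a peak and 56.3% in all, and the median ratio of observed to expected CpG was 0.82 and 0.57. A peak was found in 0.182% (0.0733% to 0.375%) of the windows with 0 to 2 CpG dinucleotides and in 0.355% (0.214% to 0.554%) of those with 3 to 9. The share was 2.00% (1.56% to 2.52%) with 10 to 17, 3.34% (2.79% to 3.97%) with 18 to 25, and 3.10% (2.63% to 3.63%) with 26 or more. The last 2 intervals overlapped, so no further rise was seen above 18. With the 50 bases after the start included, the windows of Opa3 and Smg1 held 43 and 30 CpG dinucleotides, and that of Fam214b held 9. Among the 51 windows whose strongest peak had a pileup of 2 the median was 17, and among the 320 with a pileup of 3 or more it was 24.

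**Figure D4:**
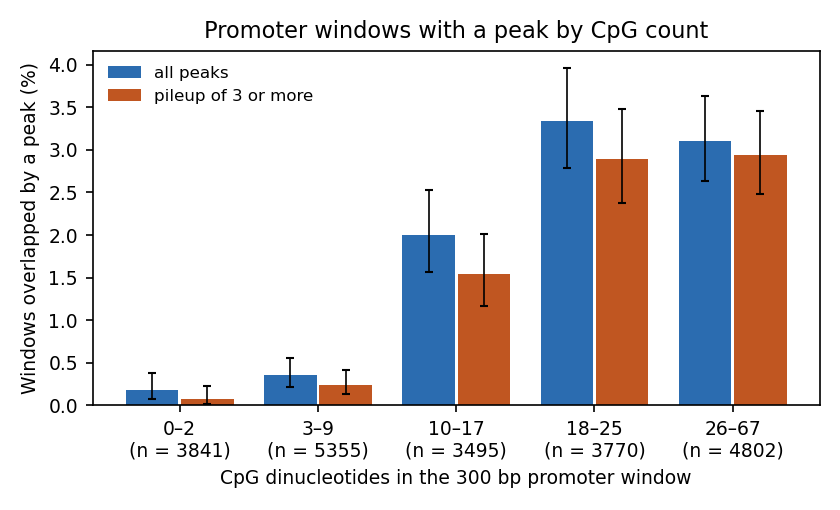
The share of 300 bp promoter windows overlapped by a peak (vertical axis, in percent, with 95% exact intervals) is plotted by the number of CpG dinucleotides in the window (horizontal axis, with the number of windows), for all peaks and for peaks with a pileup of 3 or more. The share rose from 0.182% at 0 to 2 CpG dinucleotides to 3.34% at 18 to 25 and was 3.10% at 26 to 67.

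The letters of known motifs were then counted on both strands of these windows. The Smad box, CAGAC, was found in 185 of the 371 windows with a peak (49.9%, 44.7% to 55.1%) and in 48.4% of all windows. The Smad palindrome GTCTAGAC was in 2 windows with a peak (0.539%, 0.0654% to 1.93%) and in 0.226% of all. The GC-rich Smad site GGCGCC was in 20.2% (16.2% to 24.7%) of the windows with a peak and 15.3% of all. Among the windows with 18 or more CpG dinucleotides, however, it was in 22.9% (18.1% to 28.3%) of the 275 with a peak and in 30.9% of all 8572. For CAGAC these shares were 46.5% (40.5% to 52.6%) and 43.5%. For the Smad box, the interval of the windows with a peak thus held the share of all windows in both cases.

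The other promoter motifs depended on CpG content to different degrees. The GC box GGGCGG was in 76.8% of the windows with a peak and 46.2% of all, but among CpG-rich windows the shares were 83.6% (78.7% to 87.8%) and 80.1%, within the interval. The CCAAT box, bound by NF-Y, was in 44.7% (38.8% to 50.8%) of the CpG-rich windows with a peak and 34.6% of all CpG-rich windows. The letters GCATGCGC, part of the site of NRF1, a factor that controls many mitochondrial genes, were in 11.3% (7.79% to 15.6%) and 6.31%. The TATA box letters TATAAA were in 6.20% of the windows with a peak and 12.6% of all, and in 5.09% (2.81% to 8.39%) and 3.95% among CpG-rich windows. The cAMP response element TGACGTCA was in 4.04% (2.28% to 6.58%) of the windows with a peak and 2.23% of all. The AP-1 site TGACTCA was in 2.70% of the windows with a peak and 4.66% of all, within the interval. Among CpG-rich windows the shares were 4.36% and 3.77% for TGACGTCA, and 1.45% and 2.19% for TGACTCA. Both intervals held the share of all CpG-rich windows. Of the 9 motifs counted, the CCAAT box, GCATGCGC, and GGCGCC had shares in CpG-rich windows whose interval did not hold the share of all CpG-rich windows. A match of letters does not show that a factor was bound.

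Gene classes were then compared with the share of 3.28% over all protein-coding genes. The 53 classes were 36 families defined by their symbols and 17 lists written by hand, and 235 of the 717 genes belonged to at least 1 of them. The interval lay above 3.28% for 5 families and 1 list and below it for 3 families, and it held 3.28% for the other classes. With 53 classes, some intervals would miss the overall share by counting error alone.

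The families with an interval above the overall share were cytosolic ribosomal proteins, heat shock proteins and chaperonins, RNA polymerase, TAF, and Mediator subunits, vesicle transport genes, and the Fox, Sox, and Klf factors. Cytosolic ribosomal proteins had a gene-end peak at 8 of 86 genes (9.30%, 4.10% to 17.5%), with Rpl10 (fold enrichment 5.73), Rpl39 (5.40), Rpl22l1 (5.16), and Rps25 (5.16) the strongest. Of the 65 with a known strand, 5 had a peak at the start (7.69%), against 2.76% of all starts. Some of the others lay at 3′ ends and are shared with a neighbouring gene. The peak of Rps25 is also that of Trappc4, a vesicle transport gene, and counts in both families. Heat shock proteins and chaperonins, which help proteins fold, had 7 of 80 (8.75%, 3.59% to 17.2%), led by Dnajc21 (6.02), which acts in ribosome assembly, and Cct4 (4.38), a subunit of the cytosolic chaperonin. RNA polymerase, TAF, and Mediator subunits had 8 of 105 (7.62%, 3.35% to 14.5%). Among them were Polr2a (5.37), the largest subunit of RNA polymerase II, and Taf15 (5.08), and 5 of the 8 peaks had the lowest fold enrichments of 2.83 or 2.88. Vesicle transport genes had 12 of 161 (7.45%, 3.91% to 12.7%), among them Ap1s2 (6.54), part of a clathrin adaptor, Vps26c (5.73), which returns receptors from endosomes, and the membrane fusion proteins Stx4a (5.16) and Stx5a (4.75). Ribosomal, mitochondrial, proteasome, and RNA machinery families pooled together had 43 of 672 genes (6.40%, 4.67% to 8.52%). This pool holds the cytosolic ribosomal proteins and the RNA polymerase, TAF, and Mediator subunits given above, so its share is not separate from theirs. It also counts the peak shared by Mrpl32 and Psma2 for both genes.

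Transcription factors of the Fox, Sox, and Klf families had a gene-end peak at 7 of 80 genes (8.75%, 3.59% to 17.2%). They were Foxo3 (fold enrichment 5.21) and Foxo6 (3.57), which act downstream of insulin signals, Klf2 (4.91), Klf10 (4.41), Klf16 (4.27), Klf1 (3.47), and Sox4 (2.83). With a q-value of at most 0.01, 1.80% of all protein-coding genes had a gene-end peak. Cytosolic ribosomal proteins, with 7 genes (8.14%, 3.34% to 16.1%), and vesicle transport genes, with 10 (6.21%, 3.02% to 11.1%), were above this share as well. Heat shock proteins and chaperonins had 3 genes (3.75%, 0.780% to 10.6%), RNA polymerase, TAF, and Mediator subunits 2 (1.90%, 0.232% to 6.71%), and Fox, Sox, and Klf factors 4 of 80 (1.38% to 12.3%), and their intervals held it. With summits in place of intervals, Fox, Sox, and Klf factors had 5 genes and RNA polymerase, TAF, and Mediator subunits 7. The other families above the overall share kept their counts.

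Zinc finger proteins, the largest family of transcription factors, had 14 of 468 (2.99%), and homeobox factors 1 of 115 (0.870%), both with intervals that held the overall share.

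Sensory receptors and predicted genes lay below the overall share. Olfactory receptors had a gene-end peak at 2 of 1110 genes (0.180%, 0.0218% to 0.649%), Olfr683 (2.88) and Olfr527 (2.83), both with a pileup of 2. Vomeronasal receptors had 2 of 353 (0.567%, 0.0687% to 2.03%), Vmn2r2 (5.92) and Vmn1r19 (2.88). Predicted genes and Rik clones had 32 of 1748 (1.83%, 1.26% to 2.57%), and with a q-value of at most 0.01 they had 22 (1.26%, 0.790% to 1.90%), an interval that held the 1.80% of all genes. Without these families, 681 of 18676 genes (3.65%) had a gene-end peak. The authors kept uniquely mapped reads, and how many reads the near-identical copies of these receptor families lost was not measured.

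The classes also differed in the CpG content of their promoters. The median number of CpG dinucleotides in the richest window of a gene was 1 in olfactory and in vomeronasal receptors, 3 in predicted genes, and 15 over all 17492 genes with a window. It was 21 in cytosolic ribosomal proteins, 25 in heat shock proteins and chaperonins, 23 in RNA polymerase, TAF, and Mediator subunits, 21 in vesicle transport genes, and 24 in Fox, Sox, and Klf factors. Over all genes, a gene-end peak was found at 4.95% (4.47% to 5.46%) of those with 18 or more CpG dinucleotides, 4.02% (3.32% to 4.81%) of those with 10 to 17, and 1.45% (1.19% to 1.76%) of those with 9 or fewer. Within the genes of 18 or more CpG dinucleotides, a gene-end peak was found at 376 of 7594. For cytosolic ribosomal proteins it was 2 of 44 such genes, and for Fox, Sox, and Klf factors 2 of 34. For heat shock proteins and chaperonins it was 6 of 46, and for RNA polymerase, TAF, and Mediator subunits 6 of 66. For vesicle transport genes it was 6 of 86. These counts are small, and the part of CpG content in the class shares was not tested.

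**Figure D5:**
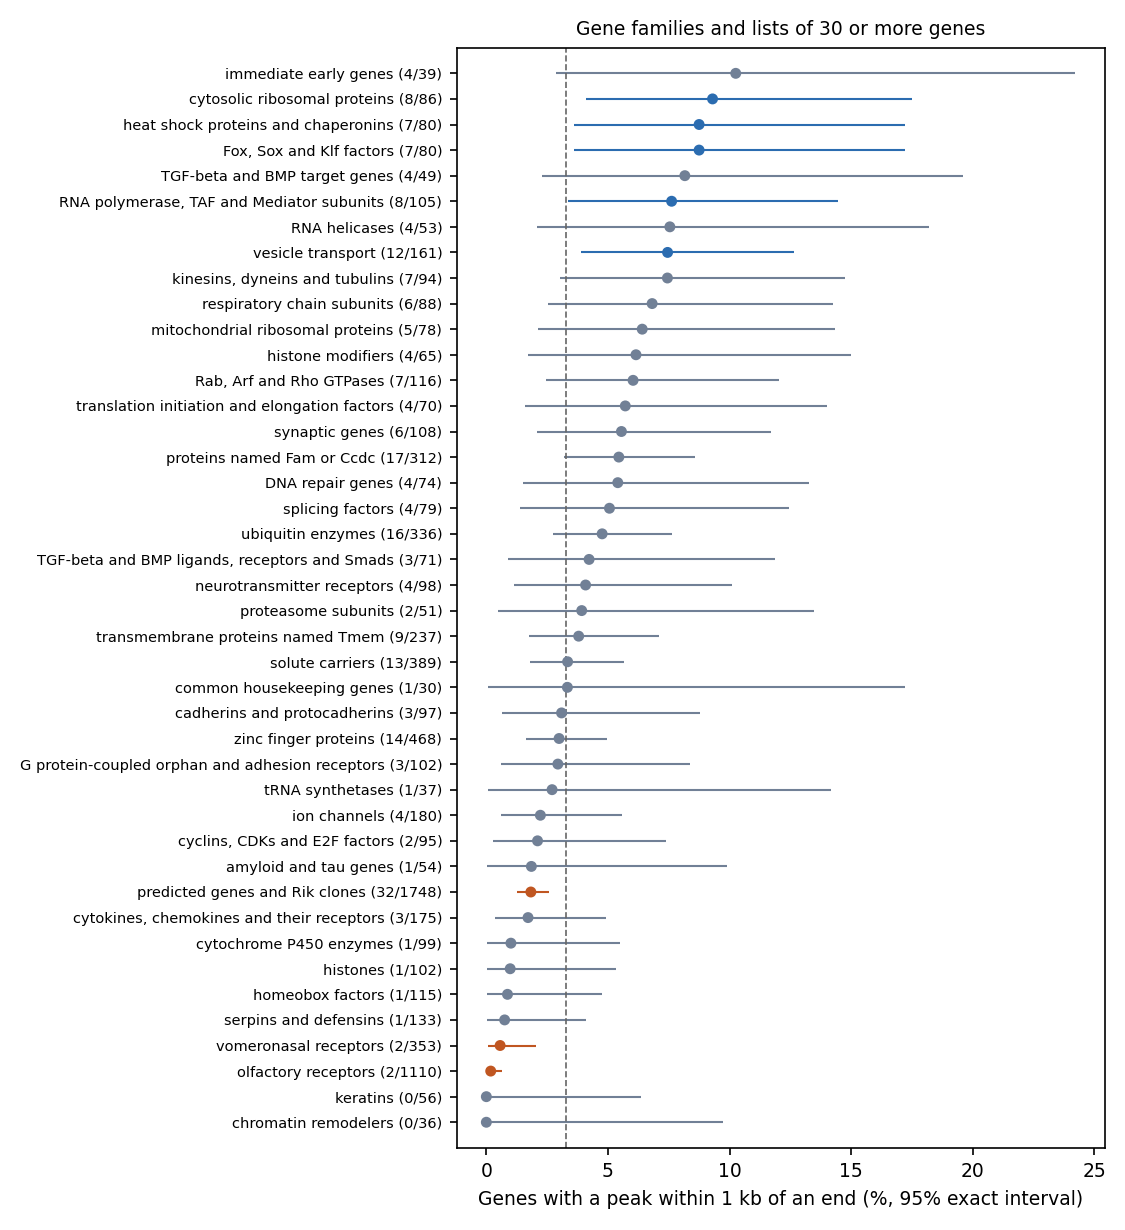
The share of genes with a gene-end peak (horizontal axis, in percent) is plotted as a point with its 95% exact interval for each family or list of 30 or more genes (vertical axis, with the number of genes with a peak and in all), and the dashed line marks 3.28%. Intervals wholly above the line are blue, those wholly below it are red, and those that hold it are grey, with olfactory receptors near 0 and cytosolic ribosomal proteins at 9.30%.

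Genes of the TGF-β and BMP pathways, in which Smad4 acts, had a few gene-end peaks, and the intervals of both lists held the overall share. Of 71 genes for ligands, receptors, Smads, and their regulators, 3 had a gene-end peak (4.23%, 0.880% to 11.9%). They were Nog, a secreted BMP antagonist, with a fold enrichment of 7.36 and a pileup of 8, Smad7, an inhibitory Smad, with 5.13 and 6, and Gdf9, a ligand of the oocyte, with 3.44 and 3. The Gdf9 peak is shared with Uqcrq, a subunit of the respiratory chain. Of 49 known target genes, 4 had a gene-end peak (8.16%, 2.27% to 19.6%), namely Cdkn1a (9.42, at the 3′ end), Smad7, Klf10 (4.41), and Snai2 (2.88, pileup of 2). Smad4 itself had none, and its nearest peak lay 2188 bp from an end.

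The intervals of the synaptic and activity-regulated lists held the overall share as well. Of 108 synaptic genes, 6 had a gene-end peak (5.56%, 2.07% to 11.7%). The strongest were at Unc13b (8.57, shared with Fam214b), Shank1 (5.08), a scaffold of the postsynaptic density, and Dlg2 (4.46), a scaffold that anchors receptors and channels. Nlgn2 (3.44), the adhesion protein of inhibitory synapses, Slitrk3 (2.88), and Cadm3 (2.83, at the 3′ end) had q-values above 0.01. Of 39 immediate early genes, which respond quickly to stimuli, 4 had a gene-end peak (10.3%, 2.87% to 24.2%), namely Rgs2 (5.37), Klf2 (4.91), Klf10 (4.41), and Jund (4.33). Among 98 neurotransmitter receptor genes there were 4, with Gabbr2 (5.30, at the 3′ end), a subunit of the GABA-B receptor, the strongest. The others of these 4 had a pileup of 2. Among 180 ion channel genes there were 4, with Scn4a (7.48), the skeletal muscle sodium channel, the strongest. Of 54 amyloid and tau genes only Ncstn, a subunit of γ-secretase, had one (4.30), and it shares the peak with Copa. Dlg3, Map1a, and Grin2c, among the synaptic genes that the study names from this experiment, had no gene-end peak, with the nearest peaks 6351, 1180, and 1213 bp from an end. The paper gives its Dlg3 site by distance from the start codon and tests it by ChIP and a promoter reporter. Distance to the outermost end of a gene is another measure, so these values are no check of its targets.

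Marker genes gave little check of the tissue. Of 42 markers of brain cells, 2 had a gene-end peak (4.76%, 0.582% to 16.2%), and both mark hippocampal neurons. The list of hippocampal neuron markers holds 6 genes (2 of 6, 33.3%, 4.33% to 77.7%) and was the list by hand with an interval above 3.28%. The 2 genes were Zbtb20 (fold enrichment 6.73, pileup 9), a transcription factor of hippocampal neurons, and Wfs1 (5.82, pileup 6), a membrane protein of the endoplasmic reticulum that marks CA1 neurons, and both peaks held the start. The lists of pan-neuronal, astrocyte, oligodendrocyte, microglia, and vessel cell markers had 0 each. Of 56 markers of liver, muscle, skin, and testis, 0 had a gene-end peak, which allows a share of up to 6.38%, so the brain and the other organs could not be told apart by these lists. Of 30 common housekeeping genes 1 had a gene-end peak, Pkm (5.95), a glycolytic enzyme, and of 102 histone genes 1, H4c14 (3.50). Of 74 DNA repair genes 4 had a gene-end peak, led by Parp2 (5.12).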

How the data were processed

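Cut&Tag was carried out on mouse hippocampal nuclei with 1 anti-Smad4 and 1 IgG library, sequenced as 150 bp paired ends. The submitters' processing notes name BWA, MACS2, HOMER, and the build mm10, which is GRCm38, and the paper states that uniquely mapped reads were used with a MACS2 cutoff of 0.05. The handling of duplicate reads and of blacklisted regions, and the control used in peak calling, are not given in the sources used here. In the 1 peak list, the authors deposited for each peak a score, a fold enrichment over background, and p- and q-values as −log10. The deposited score equals the whole part of 10 times −log10 q in all 5326 peaks. The number of reads per library was not used here, and no replicate exists, so nothing was tested between samples.

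Gene positions, strands, and promoter sequences came from RefSeq tables of GRCm38 (49943 genes). The promoter table covers 17492 of 21887 protein-coding genes and none on chromosome 18. Pileups were recovered as the whole number that gives both the deposited fold enrichment, (pileup + 1) / (background + 1), and the Poisson p-value, with misfits of at most 0.000152 in −log10 p. The recovery and the assignment of ends were tested on simulated data. Shares carry exact 95% Clopper-Pearson intervals. A limit above a share of 0 is the upper bound of that interval. The members and gene lists were chosen with earlier results of these data known. Families were taken by symbol pattern, so a few members only share the start of a symbol. Named genes were those of the 15 gene-end peaks ranked first by −log10 q, genes with 2 peaks, the 5 widest peaks, up to 5 genes per class by −log10 q, the 10 best divergent pairs, the peaks at the limit, Smad4, and genes the study names, of which 1 is not reported here. Klf1, Sox4, and Cadm3 were outside that rule and were added after their values were seen to complete short lists. SciPy 1.17.1, pandas 2.3.3, NumPy 2.4.6, and Python 3.11.15 were used. Alternatives are given at the end.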

Additional observations from a re-analysis of the deposited data

How the results depend on the processing

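No paired analysis was possible because the 1 peak list belongs to no pair of samples and no result comes from a test. Of 57 recalculations, 42 stayed within 1.5 times the count or within the 95% interval of the share or median. When the peak had to hold the end itself, 187 peaks and 206 genes were left, 65.2% of these peaks had a q-value of at most 0.01, and the median fold enrichment was 4.38. At q-values up to 0.01, 332 peaks and 395 genes were left, the median fold enrichment was 4.75, and 86.3% lay at starts. At q-values up to 0.001, 173 peaks and 207 genes were left, with a median fold enrichment of 5.54. With a pileup of at least 3, 74.3% of the gene-end peaks had a q-value of at most 0.01 (332 of 447). This part was larger among the other peaks with such a pileup, 1725 of 2033. For the gene-end peaks with a pileup of at least 3, the median fold enrichment was 4.46 and 88.4% lay at starts. With that pileup, 0.174% of the windows with 9 or fewer CpG dinucleotides had a peak in place of 0.283%. Stricter thresholds leave fewer peaks by construction, and the cause of the higher share at starts was not tested. Summits in place of intervals, windows of 500 and 2000 bp, autosomes alone, and the removal of predicted genes or of peaks with a pileup of 10 or more moved none of the values beyond these limits. Of the 53 gene classes, the number of genes with a peak moved by more than 1.5 times in 23 classes at q-values up to 0.01 and in 2 classes with summits. The use of genes of at least 5 kb, of 1 promoter window per gene, and of a pileup of at least 3 for starts and CpG content was chosen after seeing the data. Of the 617 gene-end peaks, 170 rest on 2 fragments and 139 on 3, and what part sequencing depth had in this was not tested.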
